A study of Mus musculus with 6 samples.

Results

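Semaphorins are secreted or membrane-bound guidance proteins, and plexins are the transmembrane receptors that bind them. Neuropilins are co-receptors that hold most secreted class 3 semaphorins on plexins and that also bind VEGF. In blood vessels these genes steer sprouting and set where branches form, with Plxnd1 as the plexin best known from endothelium. The family was taken from the deposited table of translated RNA in brain endothelial cells of mouse embryos by gene symbol, and 31 of the 23827 listed genes met that rule: 20 semaphorins, 9 plexins and 2 neuropilins. A mean of at least 1 RPKM (reads scaled by transcript length and by library depth) over the 6 libraries was reached by 29 of the 31, made up of 19 semaphorins and 10 of the 11 receptor genes.

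The study set 3 libraries of embryos overexpressing Axin1 (genotype label R26 Axin1 IresLacZ overexpression) against 3 wild-type libraries (Wt). All 6 came from brain endothelial cells at E14.5 (embryonic day) on a mixed C57BL/6 x 129/Sv background, and the mothers of both groups had received tamoxifen at E12.5. Axin1 is a scaffold protein on which beta-catenin is tagged for degradation, so its overexpression can dampen Wnt/beta-catenin signalling. The comparison addresses how the RNA that these cells translate differs between the groups, and the level of signalling itself was not examined here. RNA was taken by TRAP (translating ribosome affinity purification), which pulls down ribosomes with the RNA they carry. The labels name neither the promoter behind the tagged ribosome nor any Cre. The labels call the libraries of a group biological replicates, and p-values rest on the spread between them.

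Axin1 itself had 37.8, 38.1 and 37.4 RPKM in the Axin1 overexpression libraries, against 13.6, 14.4 and 15.1 RPKM in the wild-type libraries, so the targeted gene fits the labels. Recovered reads per library ranged from 21076922 to 37040176 with Axin1 overexpression and from 53524184 to 62507510 in wild type. The column names carry a tag that is shared within each group and differs between the groups. If the tag marks a batch, batch and genotype cannot be told apart. All 12 brain endothelial markers were detected, with summed levels of 3591 to 3861 RPKM in Axin1 overexpression libraries and 4148 to 4238 RPKM in wild-type libraries. Neural progenitor markers were present too, at 2288 to 2388 RPKM with Axin1 overexpression and 1770.3 to 1939 RPKM in wild type. Meningeal fibroblast markers summed to 294 to 295 RPKM with Axin1 overexpression and 299 to 405 RPKM in wild type (4 of 12 lower by limma), and macrophage markers to 48.0 to 82.4 RPKM with Axin1 overexpression and 47.2 to 49.5 RPKM in wild type (2 of 11 tested higher). Of the erythroid markers all 5 tested were higher, with sums of 414 to 775 RPKM with Axin1 overexpression and 119.7 to 166 RPKM in wild type, while Hba-a1, Hba-a2 and Hbb-b1 were listed at 0. The part of these cells in the values of the family was not tested. Fewer cells of a type and less RNA per cell cannot be told apart in such samples.

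With Axin1 overexpression 3 of the 19 tested semaphorin genes were called lower (Sema7a, Sema6a and Sema4f) and 1 higher (Sema3f). Among the 10 tested receptor genes 1, Plxna3, was called lower. The test was limma on log2(RPKM + 1) over the 12493 genes that reached 1 RPKM on average, with a Benjamini-Hochberg adjusted p under 0.05 as the threshold. Over all tested genes 22.8% passed, 8.37% as lower and 14.4% as higher. The share called was 21.1% of semaphorin genes (15.8% lower and 5.26% higher) and 1 in 10 for receptor genes. Those totals are near or below the background, and counts this small change by several percentage points with each gene. The median log2 fold change was -0.17 for semaphorin genes and -0.13 for receptor genes, beside 0.04 for all tested genes. Once GC content and transcript length were corrected for, the medians were -0.12 and 0.03, so the sign for receptor genes turned. With libraries rescaled to their median ratio, 7 of the 19 tested semaphorin genes were lower and 1 was higher. Over all genes the split was then 1338 lower (10.7%) and 1298 higher (10.4%), beside 1046 lower and 1800 higher on the deposited scale. The share of semaphorin genes called lower then stood above that of all tested genes, as on the deposited scale.

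Sequence is shown for called members, as their annotated start regions. These are the 250 bases before the annotated transcription start, from RefSeq on GRCm38.p6, a later build than the mm9 of the deposited values. The table held such windows for 26 of the 31 members (37 windows, as some genes have several starts) and for 3 of the 5 that passed. Sema6a and Sema3f are named only. Capitals mark CTTTGA or CTTTGT, letters within which TCF and LEF factors, the DNA-binding partners of beta-catenin, are known to bind. Both strands were searched (TCAAAG and ACAAAG on the other strand), and matches on opposite strands can overlap by a base. The Sema7a window spans chr9:57939862-57940111 on the plus strand, that of Sema4f chr6:82939770-82940019 on the minus strand and that of Plxna3 chrX:74328816-74329065 on the plus strand, each printed in the direction of transcription.
Sema7a: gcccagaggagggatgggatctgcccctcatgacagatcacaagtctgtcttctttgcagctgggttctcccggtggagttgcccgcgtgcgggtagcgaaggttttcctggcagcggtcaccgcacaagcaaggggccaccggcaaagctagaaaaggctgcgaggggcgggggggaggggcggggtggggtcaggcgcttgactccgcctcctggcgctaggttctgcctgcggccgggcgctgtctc
Sema4f: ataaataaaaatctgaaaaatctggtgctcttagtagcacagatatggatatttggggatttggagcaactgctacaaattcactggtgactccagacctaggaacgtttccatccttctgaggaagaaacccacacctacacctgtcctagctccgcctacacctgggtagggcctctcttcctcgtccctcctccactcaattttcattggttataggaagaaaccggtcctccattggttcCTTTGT
Plxna3: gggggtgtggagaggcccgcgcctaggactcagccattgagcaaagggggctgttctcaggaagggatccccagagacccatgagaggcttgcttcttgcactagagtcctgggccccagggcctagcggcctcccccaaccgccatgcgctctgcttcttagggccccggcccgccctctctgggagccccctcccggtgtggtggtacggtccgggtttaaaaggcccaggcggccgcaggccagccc
Of these only the Sema4f window held a match, CTTTGT, whose first base lies 6 bases before the annotated start. Among all 37 windows of members 7 (18.9%) held either motif, beside 9075 of 32851 windows of all genes (27.6%). The windows of Sema7a and Plxna3 had 66.4% and 68.0% G and C, that of Sema4f 46.0%, and the median over all windows was 52.4%.

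Among the ligands, Sema7a was the most abundant per length and showed the largest fall of the tested members on the log2(RPKM + 1) scale. That scale understates the change of low genes. As a ratio of means, Axin1 overexpression over wild type, Sema7a and the low Sema3b both stood at 0.706. At a pseudocount of 0.1 their log2 fold changes were -0.51 and -0.46. Sema7a is the semaphorin held in the membrane by a GPI anchor, with integrin beta-1 and Plxnc1 as known binding partners. It had 63.3, 53.0 and 68.1 RPKM in the Axin1 overexpression libraries, against 82.7, 89.5 and 89.1 RPKM in the wild-type libraries. Every Axin1 overexpression library lay below every wild-type library. The mean fell to 61.5 ± 7.74 RPKM with Axin1 overexpression, against 87.1 ± 3.82 RPKM in wild type (SD, n = 3 each). The log2 fold change was -0.50 (SE 0.09, limma adjusted p = 0.00909). These levels rest on 4708 to 7553 recovered reads per library with Axin1 overexpression and 15610 to 16795 in wild type. The call held in all 16 alternative fits, with log2 fold changes from -0.58 to -0.40.

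Sema6a, a transmembrane ligand of A-type plexins, fell with little spread. It had 31.5, 32.5 and 33.3 RPKM in the Axin1 overexpression libraries, against 41.1, 44.1 and 42.2 RPKM in the wild-type libraries. The groups did not overlap, and the mean was 32.4 ± 0.937 RPKM with Axin1 overexpression and 42.5 ± 1.51 RPKM in wild type (SD, n = 3 each). The log2 fold change was -0.38 (SE 0.06, limma adjusted p = 0.00472), and it stayed between -0.42 and -0.31 and past the threshold in all 16 alternative fits. The other class 6 genes lay below wild type by less. Sema6d, a ligand of Plxna1, had 52.0, 48.0 and 49.4 RPKM with Axin1 overexpression, against 53.9, 58.2 and 60.8 RPKM in wild type. Its groups did not overlap, but it did not pass (log2 fold change -0.21, limma adjusted p = 0.0584), although 5 of 16 alternative fits passed it. Sema6c did not pass either (-0.22, limma adjusted p = 0.0617), although 5 of 16 alternative fits passed it, among them that without wild-type replicate 3 (adjusted p = 0.0371). With GC content and length corrected for, the log2 fold change of Sema6c was -0.03 (adjusted p = 0.726). Sema6b had 13.2 ± 0.198 RPKM with Axin1 overexpression and 13.8 ± 0.911 RPKM in wild type (SD, n = 3 each), with overlap.

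**Figure D1:**
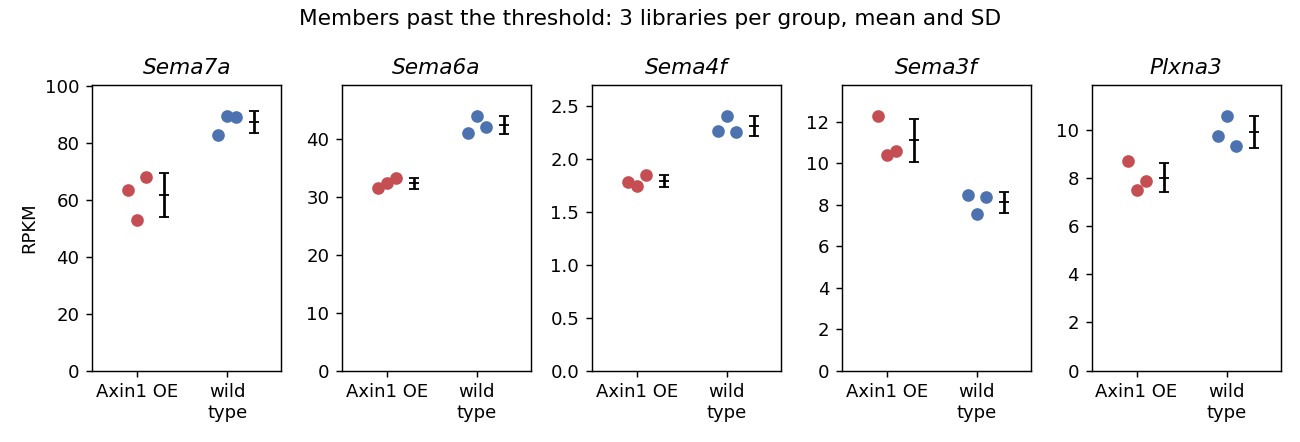
RPKM of the 5 members past the threshold, with one point per library, Axin1 overexpression to the left and wild type to the right in each panel, and the mean with its SD beside the points (n = 3 each; each vertical axis starts at 0). The groups do not overlap in any panel, and Sema3f is the only one of the 5 that is higher with Axin1 overexpression (11.1 against 8.12 RPKM).

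Class 4 semaphorins are transmembrane ligands that mostly signal through B-type plexins. Sema4f, one of the lower-level members, had 1.78, 1.74 and 1.85 RPKM in the Axin1 overexpression libraries, against 2.26, 2.41 and 2.25 RPKM in the wild-type libraries. The groups stood apart, at log2 fold change -0.25 (SE 0.06, limma adjusted p = 0.0195). As a ratio of means, Axin1 overexpression over wild type, Sema4f stood at 0.775, beside 0.764 for Sema6a. The Sema4f call was lost without Axin1 replicate 2 (adjusted p = 0.0849) or Axin1 replicate 3 (0.0514), with GC content and length corrected for (0.102) and at a pseudocount of 10 (0.121). Sema4d, the best known ligand of Plxnb1, had 3.29, 3.03 and 2.85 RPKM with Axin1 overexpression, against 3.86, 3.92 and 3.34 RPKM in wild type, with no overlap. It did not pass (log2 fold change -0.21, limma adjusted p = 0.0667), except without wild-type replicate 3 (adjusted p = 0.0448). Sema4a and Sema4g also stood apart without passing, at log2 fold changes of -0.17 and -0.19 (limma adjusted p = 0.0605 and 0.0673), and passed in 4 of 15 and in 2 of 16 alternative fits. Sema4c, the most abundant of the class and a ligand of Plxnb2, had 23.3 ± 0.47 RPKM with Axin1 overexpression and 23.7 ± 1.00 RPKM in wild type (SD, n = 3 each). Its log2 fold change was -0.03 with a 95% interval from -0.16 to 0.11, and Sema4b stood at -0.02 with an interval from -0.19 to 0.16.

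Class 3 semaphorins are secreted, and most signal through a neuropilin and an A-type plexin. Sema3f, a ligand of Nrp2 known to repel endothelial cells, was the only one of the 29 tested members called higher. It had 12.3, 10.4 and 10.6 RPKM in the Axin1 overexpression libraries, against 8.45, 7.53 and 8.38 RPKM in the wild-type libraries. The groups did not overlap, and the log2 fold change was 0.40 (SE 0.08, limma adjusted p = 0.0105). The call held in all 16 alternative fits, with values from 0.22 to 0.50. Neural progenitor markers moved the same way in the same libraries, since 10 of 14 were higher by limma with a median log2 fold change of 0.51, and their summed levels did not overlap. Of 14 neuron markers 5 were higher (median 0.23), with sums of 748 to 762 RPKM with Axin1 overexpression and 598 to 765 RPKM in wild type. Their part in the Sema3f result was not tested.

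Sema3g, a secreted ligand of neuropilins made in arterial endothelium, was the most abundant class 3 gene. It had 43.3, 32.4 and 35.3 RPKM in the Axin1 overexpression libraries, against 45.2, 42.0 and 46.8 RPKM in the wild-type libraries. Axin1 replicate 1 reached into the wild-type range, and the gene did not pass (log2 fold change -0.27, limma adjusted p = 0.0881). Without that library the adjusted p was 0.0219 and the log2 fold change -0.39. Sema3a, the classic axon-repelling ligand of Nrp1, had 3.50, 2.86 and 2.88 RPKM with Axin1 overexpression, against 3.70, 2.66 and 3.21 RPKM in wild type. The groups overlapped, with a log2 fold change of -0.03 and a 95% interval from -0.27 to 0.20. Sema3c, which binds both neuropilins and signals through Plxnd1, averaged 2.34 ± 0.296 RPKM with Axin1 overexpression and 2.76 ± 0.506 RPKM in wild type (SD, n = 3 each; limma adjusted p = 0.286). Sema3b averaged 1.04 ± 0.186 RPKM with Axin1 overexpression and 1.47 ± 0.335 RPKM in wild type (SD, n = 3 each), stood apart between the groups and did not pass (log2 fold change -0.27, limma adjusted p = 0.095).

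Sema3d lay at the edge of the 1 RPKM threshold and averaged 0.972 ± 0.258 RPKM with Axin1 overexpression and 1.09 ± 0.481 RPKM in wild type (SD, n = 3 each), so that only the wild-type mean reached 1 RPKM. Sema3e, which binds Plxnd1 without a neuropilin, was the semaphorin that did not reach it. It had 0.460, 0.350 and 0.345 RPKM in the Axin1 overexpression libraries, against 0.468, 0.386 and 0.439 RPKM in the wild-type libraries, and was not tested. These values stand for 50 to 115 recovered reads per library with Axin1 overexpression and 141 to 199 in wild type.

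The class 3 genes shared an order among libraries that the genotype does not set. In wild type all 7 were lowest in replicate 2, and with Axin1 overexpression all 7 were highest in replicate 1. Of the 13 semaphorin genes of the other classes, 2 were lowest in wild-type replicate 2 and 8 were highest in Axin1 replicate 1. The share of all tested genes with this order was not counted, so the order cannot be called particular to class 3. In the same wild-type replicate 2 the summed neuron markers stood at 598 RPKM, against 765 and 721 RPKM in wild-type replicates 1 and 3, and the summed meningeal fibroblast markers at 299 RPKM, against 405 and 325 RPKM. Axin1 replicate 1 held the highest sum of pericyte and smooth muscle markers, 253 RPKM, against 178 and 195 RPKM in Axin1 replicates 2 and 3, and of macrophage and microglia markers, 82.4 RPKM, against 48.0 and 56.4 RPKM. Summed neural progenitor markers were lowest in wild-type replicate 2, at 1770.3 RPKM against 1939 and 1839 RPKM in replicates 1 and 3. They were highest in Axin1 replicate 1, at 2388 RPKM against 2348 and 2288 RPKM in replicates 2 and 3. Other sums had a different order. Neuron and meningeal fibroblast sums were lowest in Axin1 replicate 1 (748 and 294 RPKM). Macrophage and brain endothelial sums were highest in wild-type replicate 2 (49.5 and 4238 RPKM). The part of these cell types in the class 3 levels was not tested. The order of replicates touches the spread of Sema3c, whose adjusted p by limma was 0.0509 without wild-type replicate 2.

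Class 5 semaphorins carry thrombospondin repeats and can bind A- and B-type plexins. Both overlapped between the groups. Sema5a had 7.20, 6.48 and 5.67 RPKM with Axin1 overexpression, against 5.45, 5.87 and 6.14 RPKM in wild type (log2 fold change 0.12, limma adjusted p = 0.317). Sema5b averaged 4.80 ± 0.42 RPKM with Axin1 overexpression and 4.59 ± 0.291 RPKM in wild type (SD, n = 3 each).

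Of the 19 tested semaphorin genes 16 had a log2 fold change below 0, beside 41.2% of all tested genes. For 9 of them all Axin1 overexpression libraries lay below all wild-type libraries, beside 15.9% of all tested genes, and for 1 all lay above, beside 28.0%. At an unadjusted limma p under 0.05, 10 semaphorin genes were lower, the 3 called ones included, beside 14.1% of all tested genes. With GC content and length corrected for, the log2 fold changes of Sema4b, Sema4c and Sema6b turned to 0.08, 0.08 and 0.11. Those of Sema4g and Sema6c shrank to -0.06 and -0.03, and the other semaphorin genes below 0 stayed below 0. The summed level of the 20 semaphorin genes was 294, 262 and 283 RPKM in the Axin1 overexpression libraries, against 328, 337 and 338 RPKM in the wild-type libraries, with no overlap. Abundant genes weigh most in this sum. Of its means of 279.5 RPKM with Axin1 overexpression and 334 RPKM in wild type, Sema7a alone made up 61.5 and 87.1 RPKM. In the same libraries the summed brain endothelial markers were lower with Axin1 overexpression without overlap (3 of 12 lower and 1 higher by limma, median log2 fold change -0.10), and the part of that shift in the semaphorin levels was not tested.

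**Figure D2:**
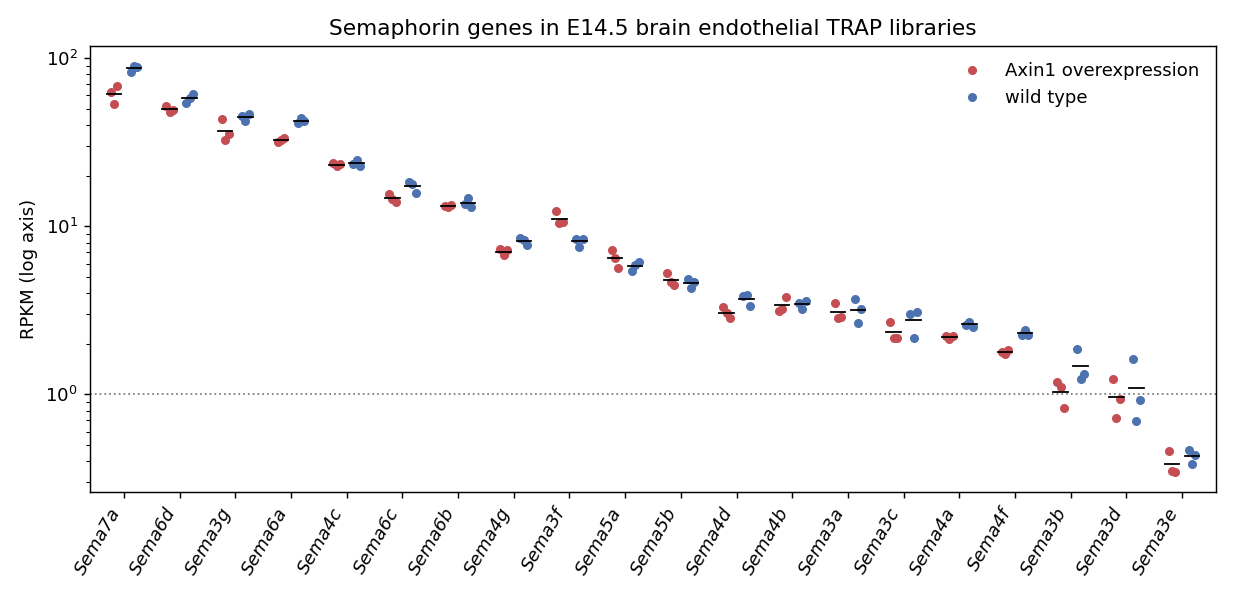
RPKM of the 20 semaphorin genes on a log axis, ordered by wild-type mean, with one point per library, Axin1 overexpression left of wild type for each gene and a bar at each group mean (n = 3 each). The dotted line marks 1 RPKM, which Sema3e stays under in every library; Sema7a tops both groups, at means of 61.5 RPKM with Axin1 overexpression and 87.1 RPKM in wild type.

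Among the receptors, Plxnd1 stood above all others in every library. It is the endothelial plexin that restrains sprouting towards semaphorin sources. It had 176, 147 and 140.3 RPKM in the Axin1 overexpression libraries, against 166, 170.2 and 164 RPKM in the wild-type libraries. The groups overlapped, because Axin1 replicate 1 was the highest of the 6, and the log2 fold change was -0.12 with a 95% interval from -0.31 to 0.08 (limma adjusted p = 0.357). Plxnd1 made up 39.7% of the summed receptor RPKM with Axin1 overexpression and 40.5% in wild type, and its mean level over the 6 libraries was at percentile 97.7 of the tested genes.

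Neither neuropilin passed. Nrp1, the co-receptor for Sema3a and VEGF, had 73.5, 59.1 and 63.6 RPKM in the Axin1 overexpression libraries, against 62.8, 59.4 and 64.7 RPKM in the wild-type libraries. The log2 fold change was 0.06 with a 95% interval from -0.13 to 0.26 (limma adjusted p = 0.62). Nrp2, the co-receptor for Sema3f, had 50.1, 44.8 and 43.5 RPKM with Axin1 overexpression, against 42.4, 42.6 and 47.6 RPKM in wild type (log2 fold change 0.06, limma adjusted p = 0.593). Its 95% interval ran from -0.11 to 0.24. In the authors' deposited table the adjusted p was 1.0 for Nrp1 and 0.988 for Nrp2.

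Plxna3, a receptor for class 3 semaphorins together with neuropilins, was the receptor gene called lower. It had 8.69, 7.49 and 7.87 RPKM in the Axin1 overexpression libraries, against 9.74, 10.6 and 9.34 RPKM in the wild-type libraries. The groups did not overlap, and the log2 fold change was -0.28 (SE 0.07, limma adjusted p = 0.0321). The call was lost without Axin1 replicate 2 (adjusted p = 0.125) or 3 (0.0938), without wild-type replicate 1 (0.0645) or 2 (0.0717), with no filter (0.0539) and with GC content and length corrected for (log2 fold change -0.12, adjusted p = 0.223).

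The other A-type plexins, which act as the signalling partner of neuropilins or bind class 6 semaphorins directly, did not pass. Plxna1 had 25.0, 20.8 and 18.7 RPKM with Axin1 overexpression, against 23.6, 29.6 and 25.9 RPKM in wild type (log2 fold change -0.29, limma adjusted p = 0.102). It passed without Axin1 replicate 1 (log2 fold change -0.39, adjusted p = 0.0448). Plxna2 and Plxna4 had log2 fold changes of -0.13 and -0.23 (limma adjusted p = 0.386 and 0.203). All 4 A-type plexins were highest in wild-type replicate 2 among wild-type libraries and in Axin1 replicate 1 among Axin1 overexpression libraries. Over all 9 plexins, 7 were highest in wild-type replicate 2 among wild-type libraries and 6 in Axin1 replicate 1 among Axin1 overexpression libraries. How many of all tested genes share this order was not counted, so it cannot be called particular to plexins.

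Of the B-type plexins, Plxnb2 had 38.2, 31.4 and 30.5 RPKM with Axin1 overexpression, against 34.6, 36.1 and 35.8 RPKM in wild type (log2 fold change -0.09, limma adjusted p = 0.461). Plxnb1, the receptor of Sema4d, had 20.1, 20.5 and 19.0 RPKM with Axin1 overexpression, against 21.0, 26.7 and 20.3 RPKM in wild type (log2 fold change -0.17, limma adjusted p = 0.242). Plxnc1, the plexin that binds Sema7a, had 7.37, 7.52 and 6.76 RPKM with Axin1 overexpression, against 7.41, 8.19 and 8.27 RPKM in wild type. It overlapped between the groups and did not pass (log2 fold change -0.12, limma adjusted p = 0.211). Plxnb3, the receptor gene that did not reach 1 RPKM and lay far below it, had 10, 8 and 6 recovered reads in the Axin1 overexpression libraries, against 6, 5 and 4 in the deeper wild-type libraries. These came to 0.0456, 0.0359 and 0.0472 RPKM with Axin1 overexpression, against 0.0161, 0.0156 and 0.0116 RPKM in wild type. All Axin1 overexpression libraries lay above all wild-type libraries, on these few reads. It was not tested by limma, and its adjusted p in the authors' deposited table was 0.275.

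**Figure D3:**
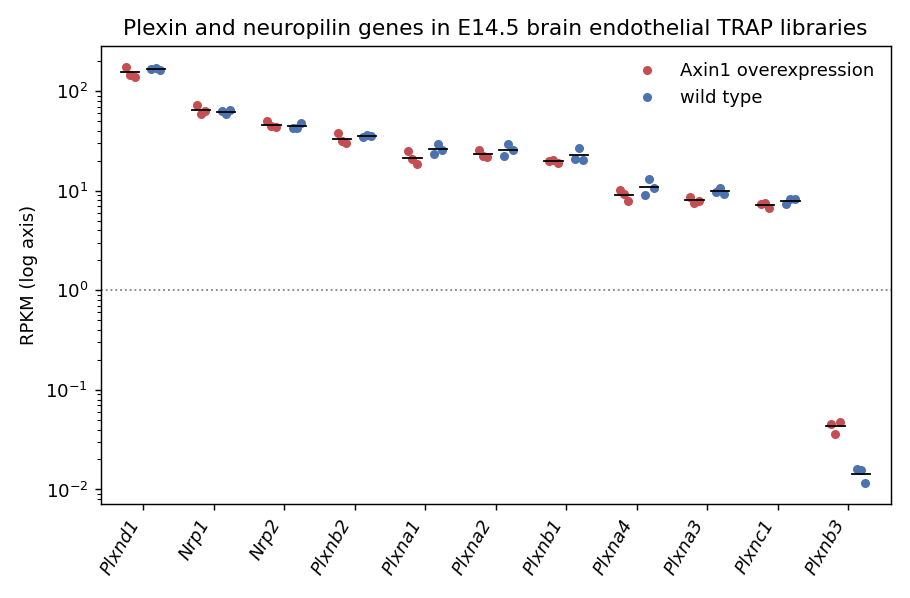
RPKM of the 9 plexin and 2 neuropilin genes on a log axis, ordered by wild-type mean, with one point per library, Axin1 overexpression left of wild type for each gene and a bar at each group mean (n = 3 each). Of the 11 genes, 10 lie above the dotted line at 1 RPKM in every library, and Plxnb3 lies far below it at 0.0429 RPKM with Axin1 overexpression and 0.0144 RPKM in wild type.

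The summed level of the 11 receptor genes was 435, 371 and 360.4 RPKM in the Axin1 overexpression libraries, against 399, 426 and 412 RPKM in the wild-type libraries. These sums overlapped, unlike those of the ligands. Of the 10 tested receptor genes 8 had a log2 fold change below 0 on the deposited scale, beside 41.2% of all tested genes. With GC content and length corrected for, Plxna2, Plxnb1, Plxnb2 and Plxnd1 turned to 0.01, 0.05, 0.09 and 0.12. On the deposited scale 1 of the 10 had groups that stood apart, beside 43.9% of all tested genes.

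**Figure D4:**
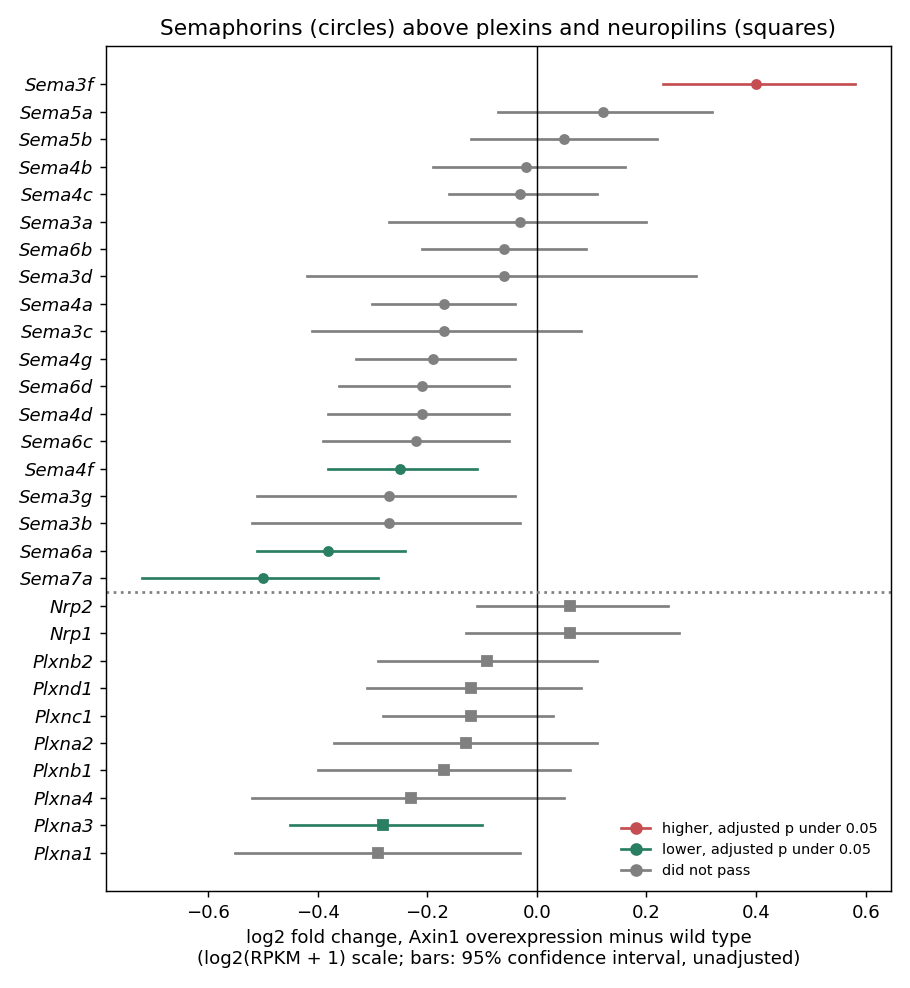
Log2 fold change (Axin1 overexpression minus wild type, log2(RPKM + 1) scale) of the 19 tested semaphorin genes (circles, top) and the 10 tested plexin and neuropilin genes (squares, bottom), with unadjusted 95% confidence intervals from the limma fit of 3 libraries per group. Sema7a lies farthest to the left at -0.50 and Sema3f farthest to the right at 0.40, and coloured symbols passed the adjusted threshold.

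The authors' deposited table, which rests on DESeq, passed the same 5 members at an adjusted p under 0.05. Its fold of wild type over Axin1 overexpression was 1.46 for Sema7a, 1.35 for Sema6a, 1.33 for Sema4f, 1.27 for Plxna3 and 0.755 for Sema3f. By the authors' deposited adjusted p, 6.89% of the tested genes were lower with Axin1 overexpression and 5.52% higher, from the same reads as the RPKM values.

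Of 18 co-receptors and other receptors 14 were tested, and 4 passed, each lower, beside 22.8% of all tested genes called in either direction and 8.37% called lower. Itga1, the integrin alpha-1 subunit that pairs with integrin beta-1 as a receptor for Sema7a, had 14.8, 12.4 and 11.7 RPKM with Axin1 overexpression, against 23.0, 18.7 and 21.6 RPKM in wild type. Its log2 fold change was -0.66 (SE 0.10, limma adjusted p = 0.00439), and the call held in all 16 alternative fits. The partner subunit gene Itgb1 did not pass (log2 fold change 0.16, limma adjusted p = 0.134; a member named after its values were seen). Flt4, the VEGF-C receptor that binds Nrp2, averaged 29.8 ± 3.13 RPKM with Axin1 overexpression and 36.8 ± 0.675 RPKM in wild type (SD, n = 3 each; log2 fold change -0.30, limma adjusted p = 0.0288). Lrp1, an endocytic receptor, had a log2 fold change of -0.49 (limma adjusted p = 0.0317). Cspg4, a proteoglycan used here also as a pericyte marker, had 9.37, 4.09 and 4.75 RPKM with Axin1 overexpression, against 11.2, 9.35 and 10.2 RPKM in wild type, so that its groups overlapped (limma adjusted p = 0.0489). The calls of Flt4, Lrp1 and Cspg4 were each lost without Axin1 replicate 2 (adjusted p = 0.112, 0.112 and 0.15) or 3 (0.0982, 0.0985 and 0.143) and without wild-type replicate 1 (0.0573, 0.0728 and 0.116) or 2 (0.0565, 0.0796 and 0.0758). Without wild-type replicate 3 the adjusted p was 0.0706 for Flt4 and 0.0958 for Cspg4. All 3 were also lost with GC content and length corrected for (0.239, 0.214 and 0.166) and with no filter (0.0552, 0.0913 and 0.14). Cspg4 also missed at pseudocounts of 0.1 (0.0683) and 10 (0.0665) and with libraries rescaled to their median ratio (0.0576). Of 16 alternative fits Flt4 passed in 9, Lrp1 in 10 and Cspg4 in 4. Of the pericyte and smooth muscle markers 4 of 10 tested were lower by limma, with overlapping sums of 178 to 253 RPKM with Axin1 overexpression and 174 to 193 RPKM in wild type, and their part in the Cspg4 value was not tested.

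Of 39 intracellular effectors 37 were tested, and 2 were higher and 2 lower, with a median log2 fold change of 0.02. Those 4 of 37 stand below the 22.8% called over all tested genes. Mical3, of the family of actin-oxidising enzymes that act below plexins, averaged 14.9 ± 1.74 RPKM with Axin1 overexpression and 20.6 ± 0.81 RPKM in wild type (SD, n = 3 each), with no overlap. It fell by 0.45 on the log2 scale (SE 0.08, limma adjusted p = 0.00925), and the call held in all 16 alternative fits. Arhgef12, an exchange factor that links B-type plexins to RhoA, fell by 0.33 (limma adjusted p = 0.0326). Fyn, a kinase in Sema3a signalling, was higher by 0.23 on the log2 scale, with 96.3, 105 and 101 RPKM with Axin1 overexpression, against 86.5, 83.5 and 87.2 RPKM in wild type (limma adjusted p = 0.0284). Rap2a, a small GTPase of the Ras family, was higher by 0.21 (limma adjusted p = 0.0486). The calls of Arhgef12, Fyn and Rap2a were each lost without Axin1 replicate 2 (adjusted p = 0.0828, 0.119 and 0.174) or 3 (0.0919, 0.0871 and 0.102) and without wild-type replicate 3 (0.0765, 0.0541 and 0.102). Arhgef12 and Rap2a also missed without Axin1 replicate 1 (0.0794 and 0.0714), Arhgef12 and Fyn without wild-type replicate 2 (0.0639 and 0.0567), and Fyn and Rap2a without wild-type replicate 1 (0.0612 and 0.129). Arhgef12 also missed with no filter (0.0722), and Arhgef12 and Rap2a with GC content and length corrected for (0.101 and 0.0541). Rap2a also missed with libraries rescaled to their median ratio (0.089), with upper quartiles equalised (0.0774) and at a pseudocount of 0.1 (0.0581). Of 16 alternative fits Arhgef12 passed in 9, Fyn in 10 and Rap2a in 6.

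**Figure D5:**
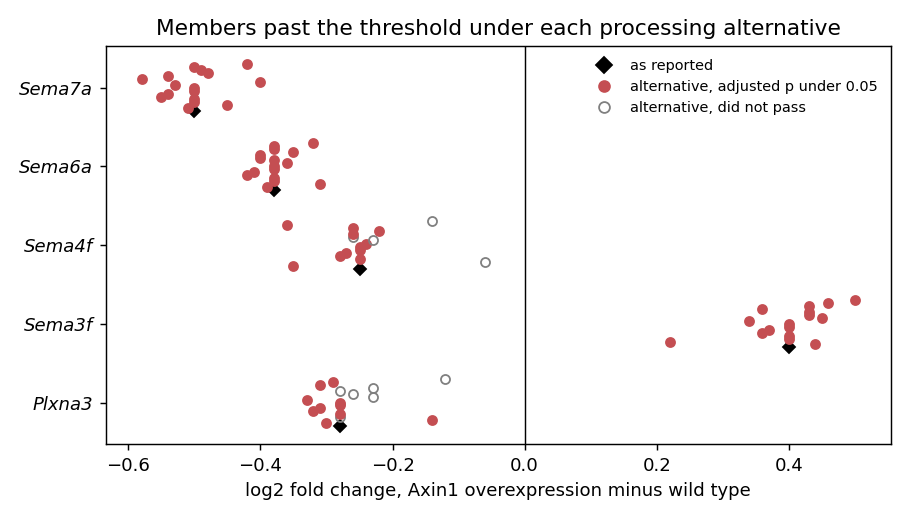
Log2 fold change (Axin1 overexpression minus wild type) of the 5 members past the threshold as reported (diamonds) and in the alternative fits (circles; open where the adjusted p was not under 0.05). Sema7a, Sema6a and Sema3f passed in all 16 alternative fits, while Sema4f passed in 11 of 15 and Plxna3 in 10 of 16.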

How the data were processed

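RNA from 6 TRAP libraries (mouse, brain endothelium, E14.5; TruSeq RNA kit, polyadenylated RNA, per the labels' protocols) was analysed from a single table of 23827 genes. Bowtie, DESeq and mm9 are named, without versions, per the submitters' processing notes. The counter, filters and use of strand are not stated in these sources. The authors deposited RPKM per library. No header names this unit, which was settled from the values: implied transcript lengths were, at the median, 0.995 times the reference lengths over 9432 single-transcript genes. Per the file headers the authors also deposited, per gene, a mean normalized count signal for each group, a fold ratio (wild type over Axin1 overexpression, read from the values) and p-values, raw and adjusted.

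Reads were recovered from the RPKM and the mean signals. Within 0.05 reads, 100% of values were whole for single-transcript genes, 26.8% where transcripts were several and 84.9% overall. Depth ranged from 21076922 to 62507510 recovered reads, with mean depth 1.84 times as high in wild type. Within groups, libraries differed beyond sampling noise (chi-square per degree of freedom from 7.77 to 45.3).

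Group was fitted to log2(RPKM + 1) with limma 3.58.1 (R 4.3.3) for the 12493 genes that reached 1 RPKM on average; the pseudocount understates the change of low genes. Two-sided p-values were adjusted by Benjamini-Hochberg. The limma step was tested on simulated data, with the same spread set for all genes. There it called 8.8% of genes with a log2 change of 0.3, 54.8% at 0.5 and 99.2% at 1. False calls averaged 9.6 per run of 12493 genes. Far fewer genes were changed in the simulation than were called in the data, so these figures hold for that setting only. Tables and plots used Python 3.11.15 (pandas 2.3.3; numpy 2.4.6; matplotlib 3.10.9). Length and GC content came from GENCODE transcripts for 12458 tested genes. The members and lists were chosen with earlier results of these data known. All members are named by rule, together with Axin1 and, of the co-receptor and the effector lists, the 4 genes with the lowest p. Alternatives were other pseudocounts, filters, scalings and variances, a log2 fold change of at least 0.5 for a call, the replicate number as a block and leaving out each library. Voom on recovered reads and the loess correction for GC content and length (span 0.5) were added after seeing the data.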

Additional observations from a re-analysis of the deposited data

How the results depend on the processing

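No member called in one direction was called in the other under any alternative run, and Sema7a, Sema6a, Sema3f and Axin1 stayed past the adjusted threshold in all 16 alternative fits. The count of semaphorin genes called was 4 as reported, 8 with libraries rescaled to their median ratio and 8 with their upper quartiles equalised, and 1 with a log2 fold change of at least 0.5 required; without each library in turn it ranged from 3 to 6. The count of receptor genes called was 1 as reported and 0 with no filter, with GC content and length corrected for or with a log2 fold change of at least 0.5, and ranged from 0 to 2 without each library in turn. By limma 2 receptor genes had an unadjusted p under 0.05, and voom on recovered reads and the authors' deposited table each called 1. All tested genes called numbered 2846 as reported, 1814 after that correction and 559 with a log2 fold change of at least 0.5. They numbered 2636 with libraries rescaled to their median ratio and 2667 with their upper quartiles equalised. Without each library in turn they ranged from 1051 (without Axin1 replicate 2) to 2319, with 1400 without Axin1 replicate 3 and 1896 without wild-type replicate 1. The median log2 fold change of semaphorin genes was -0.05 with a pseudocount of 10, which shrinks low genes by construction, and -0.12 after the correction, and ranged from -0.22 to -0.16 without each library in turn. That of receptor genes was 0.03 after the correction and ranged from -0.19 to -0.09 without each library in turn. Other causes of these shifts were not tested. Sema4a, Sema4g, Sema6c and Sema6d passed as lower after both rescalings. With GC content and length corrected for, their adjusted p by limma was 0.144, 0.501, 0.726 and 0.135. With the replicate block the semaphorin count was 5 and the receptor count 1, with 2675 genes called in all; Sema3b passed (adjusted p = 0.0491), and Fyn (0.0519) and Rap2a (0.058) were lost. Same-numbered libraries deviated together only weakly (correlations of 0.0785, 0.127 and 0.0593), although each correlated best with its own number, so the numbers were not taken as pairs. Low members are limited by depth: Plxnb3 rests on 4 to 10 reads per library.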
